A study of Rattus norvegicus with 60 samples.

Results

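The collagen genes of rat lung were followed through a short inhalation of multi-walled carbon nanotubes (MWCNT), hollow fibres of rolled carbon sheets. Members were the rows of the count table whose symbol is Col, a number, the letter a and a number, with a mean of at least 0.5 CPM (a gene's counts relative to the library's total count, on the usual CPM scale) over the air libraries that carry no outlier label. Of 44 such symbols among 30045 rows, 36 reached the minimum and all 36 passed the filter on low counts. They comprised 8 fibrillar genes (Col1a1, Col3a1, Col5a1, Col5a2, Col5a3, Col11a2, Col24a1 and Col27a1), 8 basement membrane genes (Col4a1 to Col4a6, Col15a1 and Col18a1) and 20 others. Just inside the minimum stood Col9a3 at 0.619 CPM, and just outside it Col11a1 at 0.499 CPM. The other 7 symbols under it were Col1a2, Col2a1, Col9a1, Col10a1, Col19a1, Col25a1 and Col28a1, and none of the 8 was tested.

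The rats were male Fischer 344 animals about 3 months old. They breathed nanotubes or filtered air in whole-body chambers for 6 hours a day on 3 days, and a piece of lung was taken 1 day after the last exposure. Each cumulative dose of 180, 90, 45, 22.5 and 11.25 mg/m3 was a set with its own 6 exposed and 6 air rats, here called sets 180, 090, 045, 022 and 011. With the 7 libraries labelled as outliers left out, 53 remained, with 3 in air_045, 4 in MWCNT_090, 5 in MWCNT_180 and in MWCNT_011, and 6 in each other group. Dose and set cannot be told apart, and the labels name no other treatment, allele or agent. Replicate rats shared a set, and 3 rats shared a cage, so p-values measure the spread between rats within these sets.

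Collagens are trimeric matrix proteins whose chains wind into a long helix. Fibrillar collagens, mainly types I and III in lung, form the ropes of airway walls, vessels and septa. Type IV chains form the sheet-like network of the basement membrane between alveolar epithelium and capillary, and type VI forms beaded filaments near it. Collagen types IX, XII, XIV and their relatives sit on the surface of fibrils, and types XIII and XVII span the cell membrane. Fibroblasts make most fibrillar collagen, while endothelial and epithelial cells contribute type IV. Excess type I and type III is the hallmark of fibrosis, a known late effect of inhaled rigid fibres.

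On the day after the last exposure most collagen genes did not pass the test, and those that passed at the highest dose were all lower. At 180 mg/m3, 8 of 36 members fell and 0 rose, against 10.9% of all 15995 tested genes lower and 12.0% higher. In set 090, 1 rose and 1 fell, against 6.82% and 4.28% of all genes. In set 045, 1 rose and 2 fell, against 3.32% and 2.09%. In set 022, 1 rose and 3 fell, against 5.18% and 1.62%. In set 011, 0 rose and 0 fell, against 0.0250% and 0%. These calls are edgeR's quasi-likelihood test at a Benjamini-Hochberg adjusted p under 0.05 over all tested genes. In set 180, 2 members, Col6a5 and Col6a6, were higher at an unadjusted p under 0.05. DESeq2 called 1 member higher there, Col6a6, and limma voom called 2, Col6a6 and Col16a1. In set 011, 1 member was higher and 2 were lower at an unadjusted p under 0.05, and DESeq2 and limma voom also called 0. With the 7 libraries labelled as outliers put back, set 180 gave 1 call and set 022 gave 0. In 3 of these 7, MWCNT_090 replicates 5 and 6 and air_045 replicate 5, liver markers took 19.6 to 21.7% of the counts and the collagen sum was 1190 to 1340 CPM. With the 4 others put back and those 3 left out (57 libraries), set 180 gave 11 calls and set 022 gave 4.

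The middle of the family lay a little under that of all genes. Median log2 fold changes of the 36 members were -0.147 in set 180, -0.118 in 090, -0.064 in 045, -0.104 in 022 and -0.050 in 011, beside -0.007, -0.006, -0.003, -0.003 and 0.007 over all tested genes. In set 180, 26 of 36 members had a negative value, as did 51.3% of all genes. Members covary across rats, as given further on, so these medians rest on fewer than 36 independent values. Fewer cells of a type and less RNA per cell cannot be told apart in these whole-tissue libraries.

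**Figure D1:**
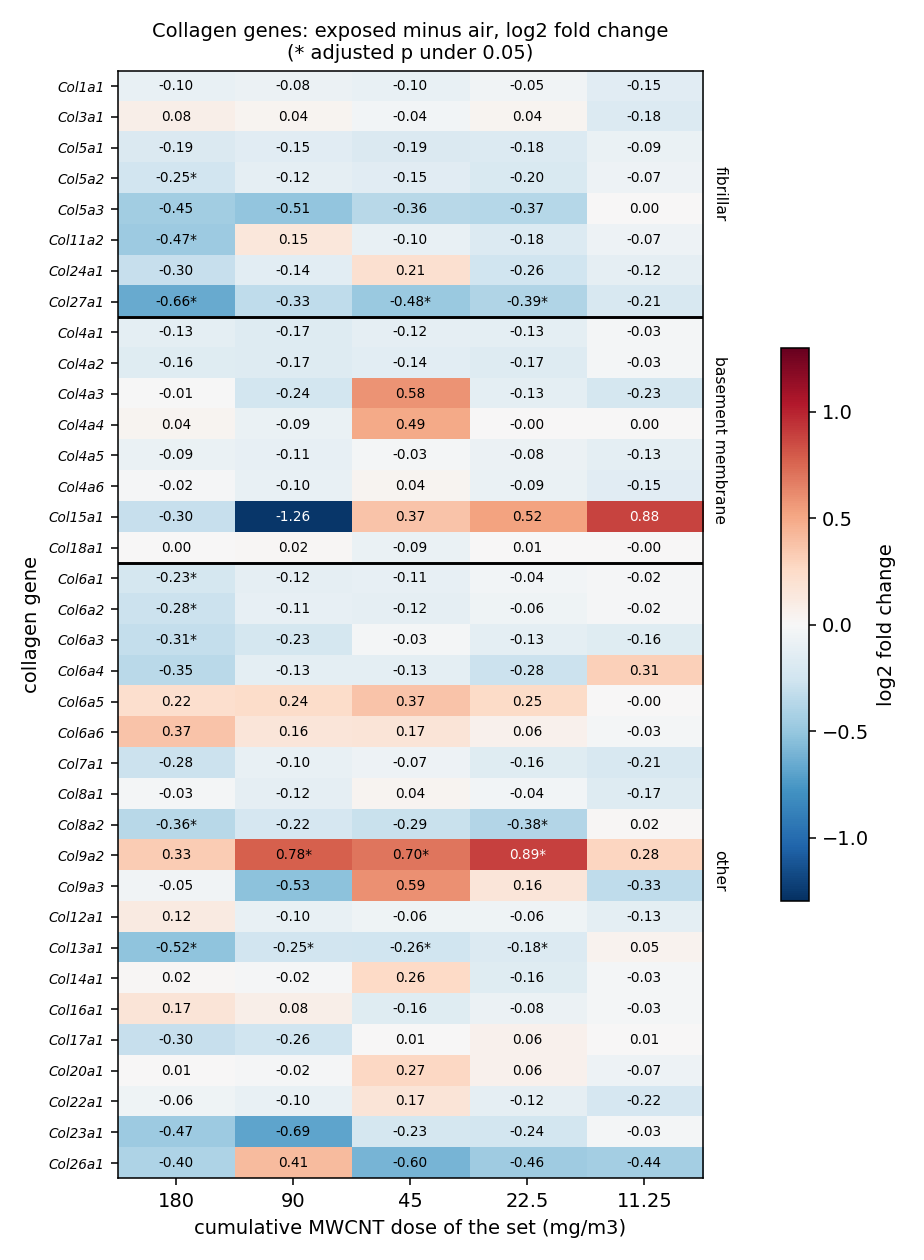
Log2 fold change of exposed against air rats for each of the 36 collagen genes (rows, by class) in each set (columns, cumulative dose in mg/m3), with an asterisk at an adjusted p under 0.05. Blue is lower in exposed rats. Col27a1 is negative in all 5 sets and Col13a1 in the 4 from 22.5 mg/m3 up, and Col9a2 is positive in all 5.

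Library depth of the 53 libraries was 8099154 to 16176867 counts with a median of 11221335. The 36 members together took 6160 to 10900 CPM per library, with a median of 9400. The 106 genes for ribosomal proteins took 1.5 to 3.14% of the counts, with a median of 1.75%. MWCNT_022 replicate 5 stood apart, with the highest ribosomal protein share (3.14%) and the lowest collagen sum (6160 CPM). Next was air_022 replicate 2, with 2.64% and 7930 CPM. The genes called in set 022 are given with and without both. The lung epithelial markers Sftpc and Ager had counts in all 53.

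Among fibrillar collagens, 3 of 8 fell in set 180 and none of the 8 rose in any set. The main fibril chains did not pass the test in any set. Col1a1 encodes the alpha1 chain of type I collagen, the chief tensile fibre. In air_180 it ran from 412 to 498 CPM with a median of 454, and the 5 exposed rats had 396, 424, 454, 394 and 473 CPM. The ranges overlapped, and the log2 fold change was -0.10 ± 0.09 (SE; adjusted p = 0.46). Its 95% interval ran from -0.28 to 0.07. In the other sets Col1a1 values were -0.08, -0.10, -0.05 and -0.15 from 090 down to 011.

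Col3a1 encodes type III collagen, the pliable partner of type I in vessels and septa. Its levels in air_180 spanned 1950 to 2250 CPM with a median of 2060, and the exposed rats had 2330, 2200, 2080, 2130 and 2270 CPM. All 5 exposed rats were above the air mean, yet the groups overlapped and the change was 0.08 ± 0.06 (SE; adjusted p = 0.42). In set 011 all 5 exposed rats were below the air mean, with 1990 ± 118 CPM (SD, n = 5) against 2270 ± 136 (n = 6). That difference of -0.18 ± 0.06 had an unadjusted p of 0.0051 and an adjusted p of 0.98.

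Col27a1, a fibrillar collagen best known from cartilage, was the fibrillar member called in most sets. In set 180 the air rats spanned 23 to 26.5 CPM with a median of 25.1, and the exposed rats had 16.2, 18.3, 16.7, 15.1 and 13.5 CPM. Every exposed rat was below every air rat, and Col27a1 fell by 0.66 on the log2 scale (-0.66 ± 0.12 SE, adjusted p = 3.5e-05), to 0.63 of the air level. In set 045 the 3 air rats had 25.2, 26.3 and 24.2 CPM, and the 6 exposed rats spanned 13.4 to 20.7 CPM with a median of 19.2. The groups were again apart, and the change was -0.48 ± 0.13 (adjusted p = 0.021). In set 022 it was -0.39 ± 0.11 (adjusted p = 0.019), with a median of 25 CPM in air and 20.6 CPM in exposed rats and overlapping ranges. In set 090 the 4 exposed rats, at 20.6, 17.6, 18.6 and 17.9 CPM, also lay below all 6 air rats (21.4 to 24.8 CPM), but at -0.33 ± 0.13 the adjusted p was 0.078.

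The Col27a1 calls at the lower doses rested on few rats. In set 045 the adjusted p was 0.067, 0.12 and 0.06 without air_045 replicate 1, 2 or 4, and 0.065 without MWCNT_045 replicate 6. In set 022 it was 0.05 without air_022 replicate 5. The lowest exposed library there was MWCNT_022 replicate 5 at 8.52 CPM, beside 18.9 to 22.8 CPM in the other 5 exposed rats.

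Col5a2 and Col11a2, chains that set the width of type I and type II fibrils, fell at the highest dose. Col5a2 spanned 474 to 545 CPM in air_180 with a median of 494, and was 435, 425, 400, 431 and 425 CPM in exposed rats. All exposed rats were below all air rats, at -0.25 ± 0.07 (adjusted p = 0.0047). Col11a2 was 9.26 to 14.4 CPM in air with a median of 12.8, and 10.6, 9.68, 8.60, 8.42 and 7.97 CPM after exposure. The ranges overlapped, with all 5 exposed rats below the air mean, at -0.47 ± 0.14 (adjusted p = 0.011). In set 022 Col5a2 was -0.20 ± 0.07 with an adjusted p of 0.053, and it passed without air_022 replicate 2 (0.015) or without any 1 of MWCNT_022 replicates 1 to 4 (0.023 to 0.04). With air_022 replicate 2 and the low exposed library MWCNT_022 replicate 5 both left out, Col5a2 did not pass there. The remaining fibrillar members, Col5a1, Col5a3 and Col24a1, did not pass in any set in edgeR's main test. Of these Col5a3, named after its values were seen, was -0.45 ± 0.17 in set 180 (adjusted p = 0.05) and -0.51 ± 0.18 in set 090 (adjusted p = 0.056). DESeq2 called Col5a3 lower in these 2 sets (adjusted p = 0.039 and 0.041), as did limma voom (0.044 and 0.033). In edgeR Col5a3 passed in set 180 without air_180 replicate 3 (0.021), air_180 replicate 4 (0.043) or MWCNT_180 replicate 4 (0.034). In set 090 it passed without air_090 replicate 1, 2 or 5 (0.029, 0.039 and 0.041).

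**Figure D2:**
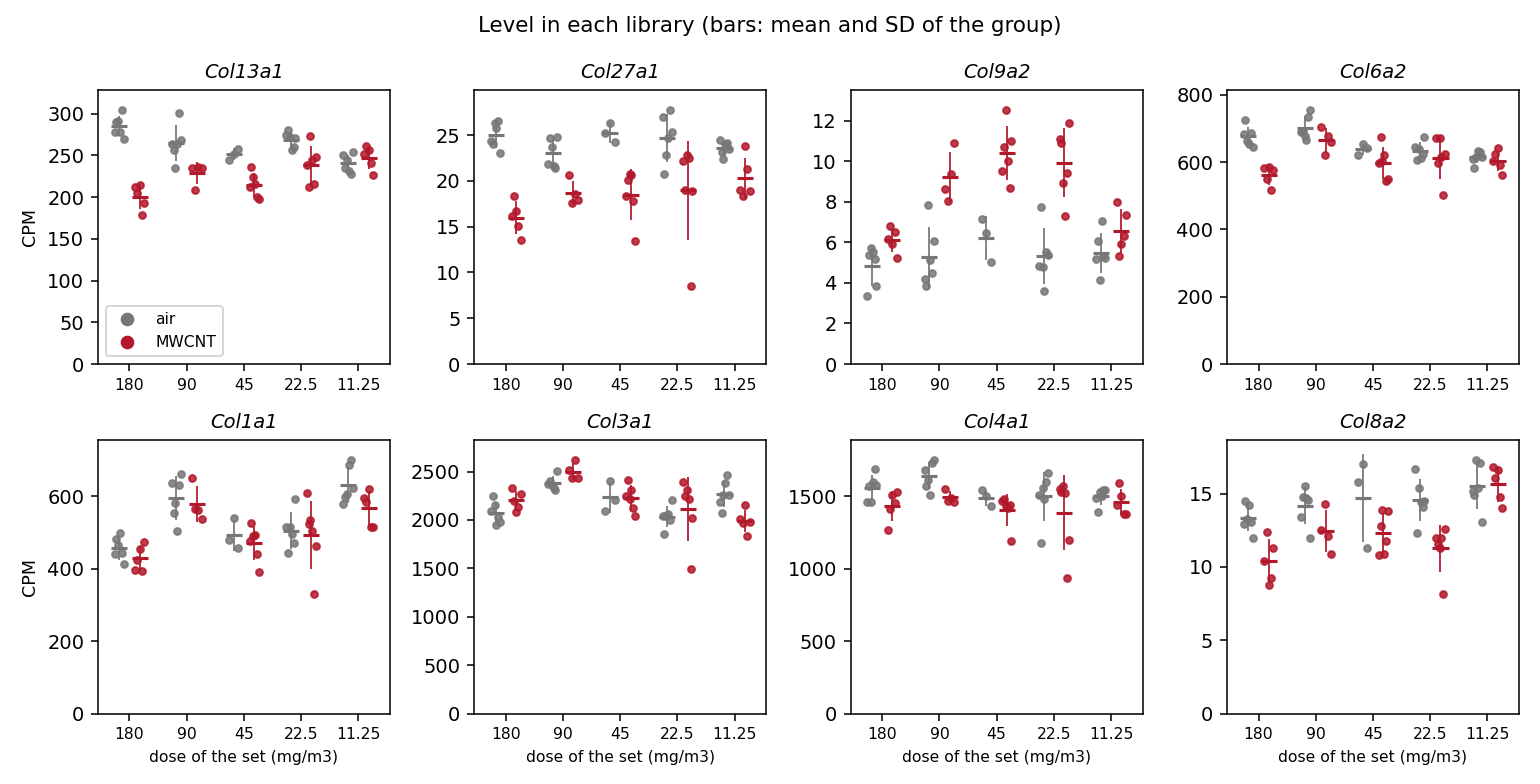
Level in CPM (linear axis from 0) of 8 collagen genes in each of the 53 libraries, by dose of the set in mg/m3, air in grey and MWCNT in red, with the mean as a horizontal and the SD as a vertical bar. Col13a1 and Col27a1 exposed rats of set 180 lie below all air rats of that set, while Col1a1, Col3a1 and Col4a1 overlap in every set.

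The basement membrane class showed no called gene in any of the 5 sets. At an unadjusted p under 0.05 in edgeR, 1 of 8 was lower in sets 180, 090, 022 and 011 each and 1 was higher in 045. Limma voom called 1 lower in set 180, 2 lower in set 090 and 1 higher in set 045, while DESeq2 called 0 in each set. The type IV genes sit in pairs that start next to each other on opposite strands and are read away from each other. Their starts, as RefSeq places them on the rat build GRCr8, are 77 bases apart for Col4a1 and Col4a2, 413 bases apart for Col4a3 and Col4a4, and 1415 bases apart for Col4a5 and Col4a6. As placed there, the genes of a pair do not overlap. The build and the strand setting used for the count table are not given in the labels, so its gene bounds may differ from these.

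The start regions of the first and second pairs are shown because they are the stretches these partner genes share. Each sequence runs 5′ to 3′ on the strand of its gene, from 250 bases before to 50 bases after the start. Capitals mark the GC box core (GGGCGG) and the CCAAT box on either strand. The windows of Col4a1 and Col4a2 share 176 bases and those of Col4a3 and Col4a4 share 88, so the shared stretch reads as its reverse complement in the partner.
Col4a1, chr16:84885347-84885646, plus strand: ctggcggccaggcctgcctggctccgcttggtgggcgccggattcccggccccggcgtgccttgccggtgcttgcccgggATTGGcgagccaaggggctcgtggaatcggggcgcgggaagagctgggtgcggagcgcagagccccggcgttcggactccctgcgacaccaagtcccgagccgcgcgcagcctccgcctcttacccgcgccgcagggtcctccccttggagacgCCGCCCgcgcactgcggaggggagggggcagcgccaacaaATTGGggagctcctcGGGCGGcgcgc
Col4a2, chr16:84885471-84885770, minus strand: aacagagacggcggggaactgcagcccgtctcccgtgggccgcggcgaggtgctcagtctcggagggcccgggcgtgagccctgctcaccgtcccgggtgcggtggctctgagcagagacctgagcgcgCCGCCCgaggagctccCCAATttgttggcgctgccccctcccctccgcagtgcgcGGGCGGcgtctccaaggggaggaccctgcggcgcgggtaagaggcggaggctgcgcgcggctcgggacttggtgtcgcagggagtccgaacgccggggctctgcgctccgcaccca
Col4a3, chr9:91323740-91324039, plus strand: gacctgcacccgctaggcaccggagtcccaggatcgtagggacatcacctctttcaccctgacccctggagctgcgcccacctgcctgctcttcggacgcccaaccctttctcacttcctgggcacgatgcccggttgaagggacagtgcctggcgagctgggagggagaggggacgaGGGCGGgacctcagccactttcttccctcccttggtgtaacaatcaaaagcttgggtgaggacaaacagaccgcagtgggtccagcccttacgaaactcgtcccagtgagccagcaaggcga
Col4a4, chr9:91323528-91323827, minus strand: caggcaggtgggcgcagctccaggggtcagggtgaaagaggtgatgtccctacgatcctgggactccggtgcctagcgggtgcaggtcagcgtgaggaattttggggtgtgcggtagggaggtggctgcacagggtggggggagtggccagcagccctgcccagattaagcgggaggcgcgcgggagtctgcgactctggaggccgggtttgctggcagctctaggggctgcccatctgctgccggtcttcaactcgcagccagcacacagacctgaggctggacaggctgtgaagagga

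These pairs differ in their letters. Both Col4a1 and Col4a2 windows held GGGCGG and CCAAT in one orientation or the other, Col4a3 held GGGCGG alone, and Col4a4 held neither. Of the 36 members, all matched a RefSeq symbol and 29 had a start window. Searched on both strands, GGGCGG was in 18 of these 29 and in 33.1% of all 33469 windows of 300 bases. CCAAT was in 7 of 29 and in 37.5% of all windows. TATAAA was in 2 of 29 and in 14.2%. No matches overlap in the windows shown, and a match describes letters, not a bound site.

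Col4a1 and Col4a2 build the common network of most basement membranes, with the trimer made of both chains. Col4a1 had 1460 to 1690 CPM in air_180 with a median of 1580, and 1270, 1410, 1510, 1450 and 1530 CPM in exposed rats. The groups overlapped although all 5 exposed rats were below the air mean, at -0.13 ± 0.08 (adjusted p = 0.24). Col4a2 was -0.16 ± 0.08 (adjusted p = 0.14), with 958 to 1110 CPM in air and 808 to 994 CPM in exposed rats. In sets 090, 045, 022 and 011 Col4a1 was -0.17, -0.12, -0.13 and -0.03, and Col4a2 was -0.17, -0.14, -0.17 and -0.03. Without air_022 replicate 2, Col4a2 in set 022 was -0.23 and passed (adjusted p = 0.024). With MWCNT_022 replicate 5 left out as well, it did not pass.

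Col4a3 and Col4a4, with Col4a5 the chains of the alveolar and kidney filter network, stood apart in set 045. The 3 air rats of that set had 78.4, 91.9 and 65.6 CPM of Col4a3, and the 6 exposed rats had at least 105 CPM, with a mean of 120 ± 17.3 (SD). For Col4a4 the air rats had 17.9, 21.2 and 18.1 CPM and the exposed rats 23.2 to 31.4 CPM with a median of 27.3. All exposed rats were above all air rats for both genes, at 0.58 ± 0.36 (adjusted p = 0.42) and 0.49 ± 0.21 (adjusted p = 0.19), neither of which passed. In set 180 the same genes were at -0.01 ± 0.30 and 0.04 ± 0.18. Col18a1, the source of endostatin, had 107 ± 4.05 CPM (SD, n = 6) in air_180 and 108 ± 1.64 (n = 5) after exposure.

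Type VI collagen, the beaded filament next to the basement membrane, was lower at 180 mg/m3 in all 3 of its classical chains. Col6a1 was 633 to 697 CPM in air with a median of 658, and 566, 536, 604, 524 and 589 CPM in exposed rats. Every exposed rat was below every air rat, at -0.23 ± 0.06 (adjusted p = 0.0014), to 0.85 of the air level. Col6a2 was 644 to 726 CPM in air with a median of 674, and 584, 550, 586, 516 and 576 CPM after exposure, also fully apart, at -0.28 ± 0.05 (adjusted p = 3e-05). Col6a3, the long chain that carries endotrophin, was 547 to 650 CPM in air with a median of 615, and 497, 474, 506, 435 and 543 CPM after exposure, at -0.31 ± 0.08 (adjusted p = 0.0042). None of the 3 passed in another set.

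The younger type VI chains, encoded side by side, did not pass in any set in edgeR's main test. Col6a5 and Col6a6, named after their values were seen, had positive values in sets 180 to 022. Col6a5 was 0.22, 0.24, 0.37 and 0.25 (adjusted p = 0.12, 0.16, 0.056 and 0.11), with 5 of 5, 4 of 4, 6 of 6 and 5 of 6 exposed rats above the air mean. In set 045 DESeq2 (adjusted p = 0.038), limma voom (0.0086) and edgeR with 57 libraries (0.014) called Col6a5 higher. EdgeR with that set fitted alone did not. Col6a5 also passed there without MWCNT_045 replicate 3 (0.049) or 6 (0.023). In set 022 it passed without air_022 replicate 6 or MWCNT_022 replicate 5 (0.041 each). Col6a6 was 0.37 ± 0.14 in set 180 (adjusted p = 0.052), with 39.2 to 59.9 CPM in air and 54 to 72.1 CPM in exposed rats. Without air_180 replicate 5 it passed at 0.46 (adjusted p = 0.017), and Col6a5 passed at 0.27 without air_180 replicate 2 (adjusted p = 0.049). Col6a4 was -0.35 ± 0.15 in set 180 (adjusted p = 0.1) and passed at -0.49 without MWCNT_180 replicate 3 (adjusted p = 0.022). The chains of 1 family are related in sequence, and how reads were divided among them is not given in the sources used here.

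Col13a1, a membrane-spanning collagen of cell adhesion sites, was the member called in most sets. In air_180 it spanned 270 to 304 CPM with a median of 284, and the exposed rats had 212, 205, 215, 178 and 193 CPM. All 5 lay below the lowest air rat, and Col13a1 fell by 0.52 (-0.52 ± 0.06 SE, adjusted p = 5.8e-10), to 0.70 of the air level. In set 090 the air rats spanned 235 to 301 CPM with a median of 264, and the exposed rats had 235, 209, 236 and 235 CPM, at -0.25 ± 0.06 (adjusted p = 0.003). In set 045 the air rats had 244, 252 and 258 CPM and the exposed rats 198 to 236 CPM with a median of 214, again fully apart, at -0.26 ± 0.06 (adjusted p = 0.0091). In set 022 the medians were 272 CPM in air and 242 CPM in exposed rats with overlap, at -0.18 ± 0.05 (adjusted p = 0.027).

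At the lowest dose Col13a1 did not move in that direction. The exposed rats of set 011 had 252, 261, 256, 241 and 227 CPM beside 228 to 254 CPM in air, at 0.05 ± 0.06 (adjusted p = 1). Its effect differed among the 5 sets (edgeR, 4 degrees of freedom, adjusted p = 5.7e-05), the single member of 36 to do so, against 4.92% of all genes. Without MWCNT_022 replicate 5, Col3a1 (adjusted p = 0.017) and Col6a2 (0.026) passed this test too. The Col13a1 call of set 022 was lost without air_022 replicate 3 (0.053), MWCNT_022 replicate 2 (0.089) or MWCNT_022 replicate 5 (0.052), and that of set 045 without air_045 replicate 4 (0.07).

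Along dose, the effect on Col13a1 changed by -0.12 ± 0.02 log2 units for each step from a dose to its next higher one (adjusted p = 3.3e-06). Col6a2 changed by -0.06 ± 0.02 per step (adjusted p = 0.012). These were the members with a slope, 0 upward and 2 downward, against 5.58% and 5.07% of all genes. Col3a1, at 0.05 ± 0.02 (unadjusted p = 0.012, adjusted p = 0.087), was the single member with an upward slope at an unadjusted p under 0.05. DESeq2 called 0 upward and limma voom 2. With MWCNT_022 replicate 5 left out 5 slopes were called, with Col3a1, Col6a1 and Col27a1 added. With set 180 or set 011 left out, 1 slope was called. Each effect is a difference from the air rats of the same set. From set 180 down to 011, mean Col13a1 was 285, 265, 252, 269 and 240 CPM in air rats. In exposed rats it was 201, 229, 214, 239 and 247 CPM. Col6a2 means were 676, 703, 638, 633 and 615 CPM in air and 562, 666, 598, 614 and 604 CPM in exposed rats. Both genes differed among the air groups, as given below. Their slopes, and the Col13a1 difference among sets, thus draw on air as well as exposed rats.

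**Figure D3:**
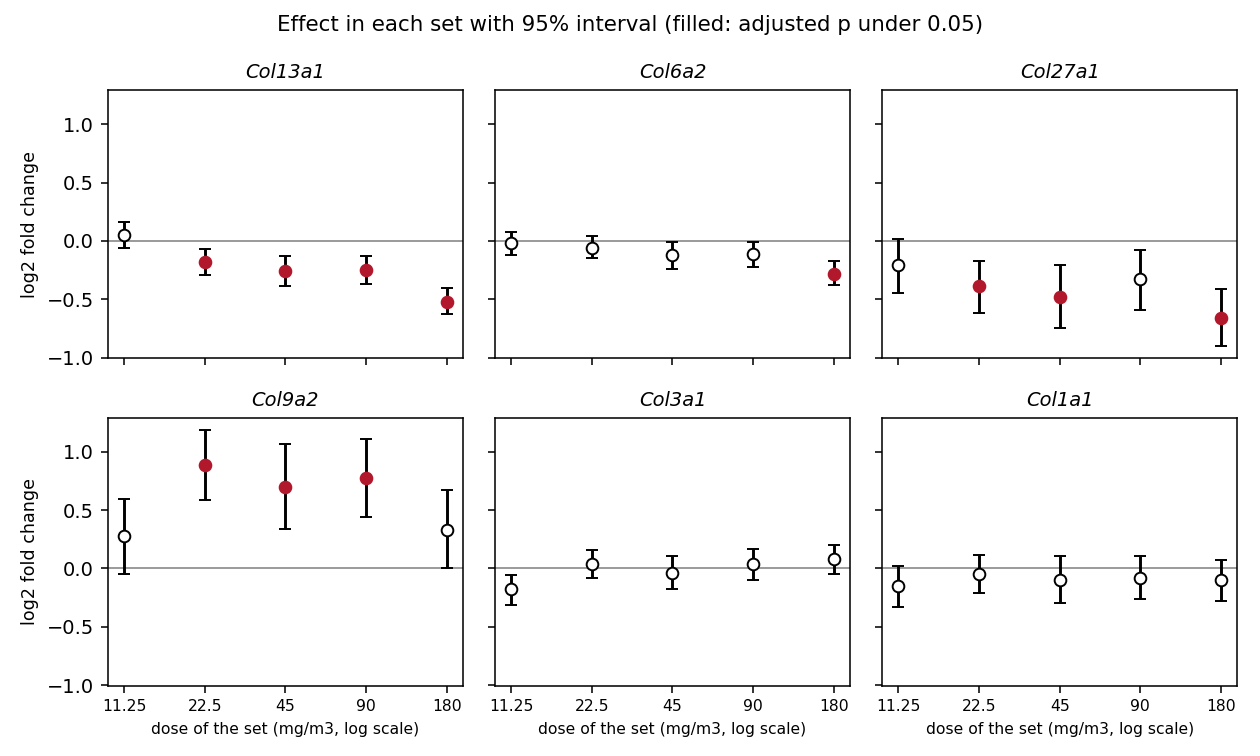
Log2 fold change in each set (points, with 95% intervals) against cumulative dose in mg/m3 on a log axis for 6 collagen genes, filled where the adjusted p was under 0.05. Col13a1 runs from 0.05 at 11.25 mg/m3 to -0.52 at 180 mg/m3, and Col9a2 is at 0.89 at 22.5 mg/m3 and 0.33 at 180 mg/m3.

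Col9a2 was the single member that rose in edgeR's tests of the 5 sets. It encodes a chain of type IX collagen, which coats type II fibrils in cartilage. In set 022 its air levels spanned 3.59 to 7.74 CPM with a median of 5.10, and the exposed rats 7.30 to 11.9 CPM with a median of 10.2. Ranges overlapped slightly, and the gene rose to 1.86 of the air level (0.89 ± 0.15 SE, adjusted p = 2.6e-05). In set 090 the air rats spanned 3.82 to 7.86 CPM and the exposed rats had 8.64, 8.01, 9.35 and 10.9 CPM, at 0.78 ± 0.17 (adjusted p = 0.00077). In set 045 the air rats had 7.17, 6.45 and 5.04 CPM and the exposed rats 8.69 to 12.5 CPM, at 0.70 ± 0.18 (adjusted p = 0.013). In these last sets all exposed rats were above all air rats.

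The rise of Col9a2 was not called at either end of the dose range. In set 180 the exposed rats had 6.17, 6.81, 5.90, 6.49 and 5.24 CPM beside 3.36 to 5.72 CPM in air, at 0.33 ± 0.17 (adjusted p = 0.16), and in set 011 the value was 0.28 ± 0.16 (adjusted p = 1). Its slope along dose was -0.00 ± 0.05, and the difference among sets did not pass (adjusted p = 0.23). In set 045 the call was lost without air_045 replicate 2 (0.052) or 4 (0.15). Col9a3, which joins Col9a2 in the trimer, was not called in any set, and Col9a1 was at 0 to 4 counts per library. Of the 8 tested cartilage markers, 0 rose in any set, and 2 fell in set 180, against 10.9% of all genes. These were Matn4 at -0.31 ± 0.07 (adjusted p = 0.001) and Cytl1 at -0.67 ± 0.10 (adjusted p = 9.6e-07). The summed level of the cartilage list was 335 to 459 CPM in air_180 and 303 to 333 in MWCNT_180, and 355 to 450 in air_022 and 285 to 455 in MWCNT_022. Acan, the cartilage proteoglycan, had 0 counts in 43 of the 53 libraries.

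Airway markers did not move in 1 direction. Foxj1, the master regulator of motile cilia, was 0.62, 0.85, 0.77 and 0.76 in sets 180, 090, 045 and 022 (adjusted p = 0.00041, 1.4e-05, 0.0013 and 2.6e-05) and 0.14 in set 011. Of the 7 airway markers tested, 2 rose in set 180, 2 in 090, 2 in 045, 3 in 022 and 0 in 011, and 2 fell in set 180 and 1 in 090. Of all genes, 12.0%, 6.82%, 3.32%, 5.18% and 0.0250% rose in these sets, and 10.9% and 4.28% fell in sets 180 and 090. The summed level of that list spanned 4830 to 7610 CPM in air_180 and 3390 to 4200 in MWCNT_180, and 5310 to 10300 in air_022 and 4740 to 8450 in MWCNT_022, and it is made up mostly of the club cell product Scgb1a1. The part of these cells in the Col9a2 result was not tested.

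Col8a2, a short-chain collagen of vessel and corneal membranes, fell in sets 180 and 022. In set 180 it was 12.0 to 14.5 CPM in air with a median of 13.2, and 10.4, 12.4, 8.80, 9.23 and 11.3 CPM after exposure, at -0.36 ± 0.10 (adjusted p = 0.0056). In set 022 it was 12.3 to 16.7 CPM in air and 8.16 to 12.6 CPM in exposed rats, at -0.38 ± 0.09 (adjusted p = 0.0055). Its partner chain gene Col8a1 was at -0.03 and -0.04 in the same sets and was not called. The other 11 genes of this class, Col7a1, Col9a3, Col12a1, Col14a1, Col16a1, Col17a1, Col20a1, Col22a1, Col23a1, Col26a1 and Col8a1, were not called in any set. Among them Col12a1, a fibril-surface collagen, had 0.12 ± 0.09 in set 180 (adjusted p = 0.41), and Col7a1, the anchoring fibril, had -0.28 ± 0.12 (adjusted p = 0.084).

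Rats that breathed only air differed between sets in some of these genes. Among the 5 air groups 5 of 36 members differed, against 7.11% of all genes. Col1a1 stood at 457 ± 31.7 CPM in air_180 (SD, n = 6), 595 ± 60 in air_090 (n = 6), 492 ± 43.3 in air_045 (n = 3), 505 ± 50.5 in air_022 (n = 6) and 632 ± 49.9 in air_011 (n = 6; adjusted p = 0.00049). Col13a1 (adjusted p = 0.017), Col6a2 (0.025), Col3a1 (0.032) and Col12a1 (0.035) also differed. Air_180 thus had the lowest mean Col1a1 and air_011 the highest. Single libraries ended some of these calls. Col12a1 was lost without air_011 replicate 2, 3, 4 or 5 or air_022 replicate 1 or 2 (0.056 to 0.11), and Col13a1 without air_011 replicate 2 (0.053). Col3a1 was lost without air_011 replicate 3 or 4, air_022 replicate 2 or air_090 replicate 6 (0.051 to 0.062), and Col6a2 without air_011 replicate 2 or 3 or air_090 replicate 5 or 6 (0.052 to 0.083). With the air_011 group left out 0 members differed.

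Chains of 1 trimer, but also some of different classes, varied together from rat to rat. After each group's mean was removed, the log2 levels of Col4a1 and Col4a2 correlated at r = 0.98 (Spearman's rho = 0.96, n = 53 libraries, adjusted permutation p = 1.8e-05 for each). Within the 5 sets that r ran from 0.93 to 1.0, and it was 0.97 without the libraries farthest from the median of Col4a1. Col6a1 and Col6a2 gave r = 0.94 and rho = 0.92, with 0.86 to 0.97 within sets. Col4a3 and Col4a4 gave r = 0.89 and rho = 0.84, with 0.64 to 0.97. Some genes outside the family, looked up after the values were seen, lay nearer to Col4a3 than Col4a4 did. They were Baz2a (r = 0.96, rho = 0.94), Hcfc1 (0.96, 0.92) and Nr2c2 (0.96, 0.91). Col4a5 and Col4a6, whose start windows share 0 bases, gave r = 0.73 and rho = 0.64, with 0.10 to 0.93. Col1a1 and Col4a1, which are of different classes, gave r = 0.79 and rho = 0.69, with 0.41 to 0.95.

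Looser pairs depended more on single libraries and sets. Col1a1 and Col3a1 gave r = 0.80 and rho = 0.69, but 0.10 within set 180 and 0.97 within set 022. Col5a1 and Col5a2 gave r = 0.83, and 0.63 without the most distant libraries. Col6a1 and Col6a3 gave r = 0.73 overall and -0.34 within set 011. Col4a1 and Col4a3, of different networks, gave r = 0.72 overall and -0.85 within set 011, and Col8a1 and Col8a2 gave r = 0.39, which was 0.18 without the most distant libraries. A total of 11 pairs was tested, with p-values from 100000 draws of libraries within groups and adjusted over the pairs. All 11 had an adjusted Pearson p under 0.05, and Col8a1 with Col8a2 and Col1a1 with Col4a3 missed it by rho (0.062 and 0.11).

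**Figure D4:**
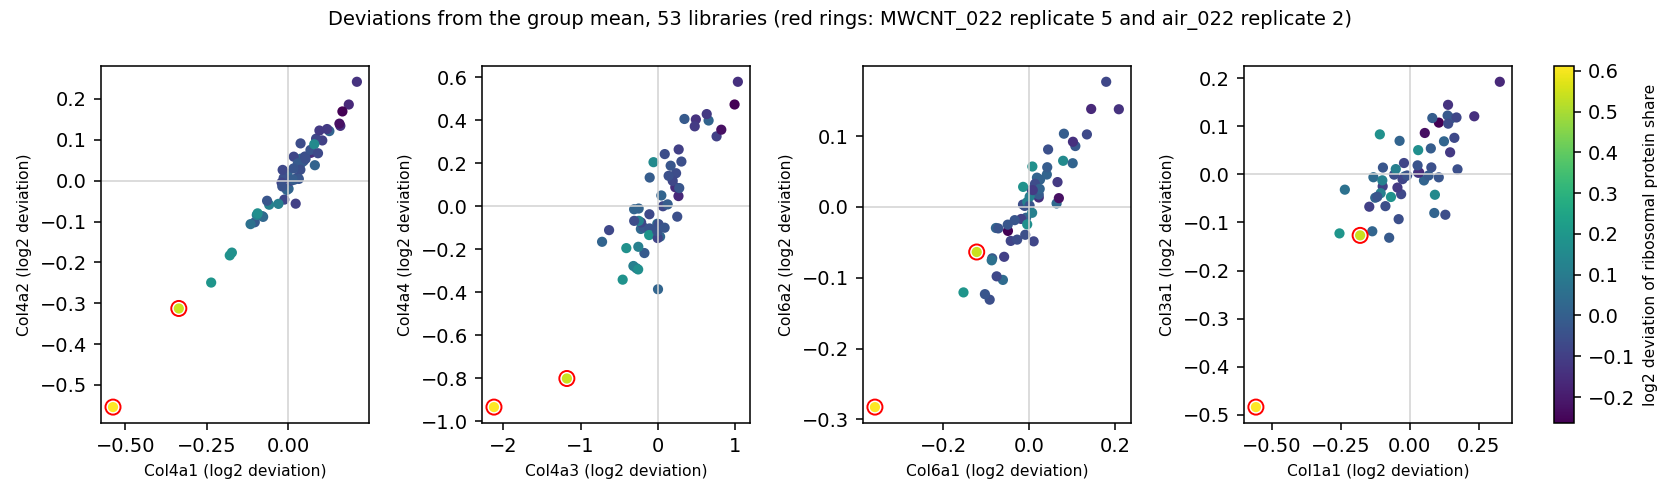
Log2 level of 4 partner pairs as deviation from the group mean, 1 point per library (n = 53), coloured by the log2 deviation of the ribosomal protein share. The red rings, MWCNT_022 replicate 5 and air_022 replicate 2, lie at the low end for Col4a1 with Col4a2 (r = 0.98) and Col4a3 with Col4a4 (r = 0.89), and their points are bright, a high ribosomal protein share.

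The shared variation moved with library makeup. Deviations of the ribosomal protein share correlated negatively with 33 of the 36 members across the 53 libraries, and 24 of these passed an adjusted permutation p of 0.05 by Pearson's r and 20 by Spearman's rho. This correlation was computed for collagens only, so whether it is particular to them was not tested. The median r was -0.58, and -0.33 without MWCNT_022 replicate 5 and air_022 replicate 2. Col4a5 had r = -0.93 (rho = -0.79, adjusted p = 4.5e-05), which was -0.85 without those libraries, and Col4a1 had -0.88 (rho = -0.70, -0.76 without them). Col13a1 (r = 0.03, rho = 0.18, adjusted p = 0.92) and Col9a2 (0.20, 0.14, 0.29) did not pass. Col27a1, called in as many sets as Col9a2, did (r = -0.68, rho = -0.36, adjusted p = 0.0036), with -0.40 without those libraries. The share was 1.84 ± 0.152% in air_180 (SD, n = 6) and 1.95 ± 0.149% in MWCNT_180 (n = 5).

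With the ribosomal protein share as a covariate, a setting chosen after seeing the data, all 25 collagen calls above remained. The same fit called Col6a6 higher in sets 180, 090, 045 and 022 (0.48, 0.33, 0.32 and 0.27, adjusted p = 1.3e-06, 0.0014, 0.0092 and 0.012) and Col6a5 in the same sets (0.26, 0.30, 0.41 and 0.33). It also called Col4a3 (0.87, adjusted p = 0.0074) and Col4a4 (0.64, adjusted p = 0.0018) higher in set 045, and Col12a1 and Col16a1 in set 180. The exposed mean of the share was above the air mean in each set, so this covariate partly runs along with exposure. Whether exposure itself shifts the share was not tested. Without MWCNT_022 replicate 5 and air_022 replicate 2, Col13a1 in set 022 was -0.15 (adjusted p = 0.096), Col27a1 -0.29 (0.015), Col8a2 -0.35 (0.012) and Col9a2 1.03 (3.8e-06).

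The genes whose deviations were most like those of Col1a1 were Sun1 (r = 0.80, rho = 0.74), Npr2 (0.80, 0.69) and Lama4 (0.79, 0.65), among genes of at least 5 CPM outside the family and over 53 libraries. For Col4a1, Scube2 (0.90, 0.74) and Nid1 (0.90, 0.77) were among the nearest. A gene picked as the highest of many gets no p. For Col13a1, looked up after its values were seen, the nearest was Tcf21 (r = 0.77, rho = 0.79), a transcription factor of alveolar fibroblasts, which itself was -0.17 ± 0.10 in set 180 (adjusted p = 0.21). For Col9a2, also looked up after its values were seen, Fgfbp1 (0.67, 0.64) and Ccdc113 (0.67, 0.66), a protein of ciliary axonemes, were among the nearest.

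A few rows varied far more between rats of 1 group than the rest. The standard deviation within groups was 1.71 log2 units for Col15a1, 1.26 for Col23a1 and 0.56 for Col4a3, beside a median of 0.16 and a 99th percentile of 0.82 over all tested genes. Col15a1, a basement membrane multiplexin, had 0.498, 13.1, 4.57, 0.0897, 15.3 and 30.5 CPM in the 6 rats of air_090. Exposed rats of set 045 had 23.7, 23.7, 1.14, 0.293, 19.8 and 3.00 CPM. Col23a1, a membrane collagen, had 0.164, 2.44, 0, 0.0955, 6.41 and 0.0960 CPM in air_180. High and low rats occurred in both treatments, and fold changes of Col15a1 from -1.26 in set 090 to 0.88 in set 011 did not pass.

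The alpha2 chain of type I collagen fell out of the family by its row. The row Col1a2 had 0 or 1 count in each of the 53 libraries, while Col1a1 had 330 to 700 CPM. A further row named Col1a2-2, which the naming pattern does not take, held 12 to 943 counts per library. Its level was under 5 CPM in 25 libraries and at least 10 CPM in 28, with 0 in between. In air_180 the 6 rats had 3.77, 2.13, 50.4, 61.6, 1.73 and 18.6 CPM, and in MWCNT_180 the 5 rats had 2.72, 24.2, 47.3, 1.72 and 2.22 CPM. The split ran through both treatments, and how the annotation divides the gene is unknown here, and no value for type I alpha2 is reported.

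**Figure D5:**
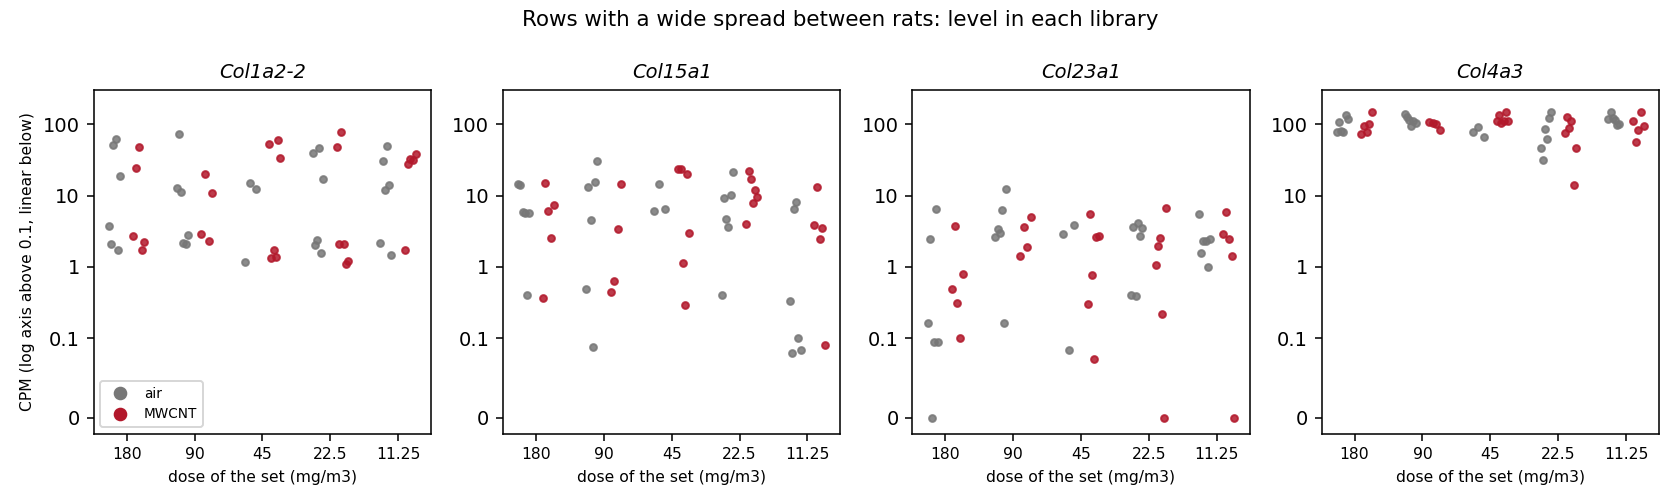
Level in CPM of the row Col1a2-2 and of Col15a1, Col23a1 and Col4a3 in each of the 53 libraries by dose of the set in mg/m3, on an axis that is logarithmic above 0.1 CPM and linear below. Col1a2-2 leaves a gap between 5 and 10 CPM with rats of both treatments on either side.

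The enzymes that modify and fold collagen chains split in set 180, with 2 of 16 tested genes higher and 2 lower. Over all genes 12.0% were higher and 10.9% lower there, so several of the list counts below are near the share of all genes. P4hb, the beta subunit of prolyl 4-hydroxylase and a general disulfide isomerase, rose from 577 ± 16.2 CPM (SD, n = 6) to 719 ± 27.7 (n = 5; 0.31 ± 0.04 SE, adjusted p = 1.2e-08). Colgalt2, a collagen galactosyltransferase, fell (-0.30 ± 0.08, adjusted p = 0.0023). Fkbp10 (0.13, adjusted p = 0.035) and Fkbp14 (-0.21, adjusted p = 0.036), prolyl isomerases, each lost the call without any of 6 libraries of the set. Serpinh1, the collagen chaperone, and P4ha1 were at -0.12 and -0.01 and did not pass.

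Trimming and cross-linking genes gave 0 higher and 2 lower of 13 in set 180, against 12.0% and 10.9% of all genes. At an unadjusted p under 0.05, 1 was higher and 3 were lower. Adamts2, which cuts the amino end of procollagen, fell from 95.2 ± 4.28 to 77.8 ± 4.02 CPM (-0.30 ± 0.06, adjusted p = 4.3e-05). Tgm2, a transglutaminase, fell too (-0.22 ± 0.05, adjusted p = 0.00019). The lysyl oxidase Lox was at 0.12 ± 0.09 and did not pass.

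Proteins that bind fibrils had 2 of 16 higher and 6 lower in set 180, against 12.0% and 10.9% of all genes. Thbs2, thrombospondin 2, rose from 5.04 ± 0.827 to 11.5 ± 1.26 CPM (1.17 ± 0.14, adjusted p = 7e-09), and Fn1, fibronectin, from 1820 ± 110 to 2310 ± 153 CPM (0.34 ± 0.09, adjusted p = 0.0049). Sparcl1, a matricellular protein, fell from 569 ± 29.4 to 439 ± 21.6 CPM (-0.38 ± 0.05, adjusted p = 3.1e-07). Fbln2 fell by 0.30 (adjusted p = 0.019), a call lost without air_180 replicate 4, MWCNT_180 replicate 2 or MWCNT_180 replicate 4.

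Partners of type IV collagen in the basement membrane had 0 of 15 higher and 9 lower in set 180, against 12.0% and 10.9% of all genes. Their median was -0.23, with 10 lower and 0 higher at an unadjusted p under 0.05. In set 090, 6 of the 15 fell, in 045 0, in 022 2 and in 011 0, against 4.28%, 2.09%, 1.62% and 0% of all genes. Lamc3, a laminin gamma chain, fell from 39 ± 4.47 to 24.5 ± 1.94 CPM (-0.68 ± 0.11, adjusted p = 4.5e-06), and Lama2 from 65.1 ± 3.56 to 52.9 ± 3.23 CPM (-0.31 ± 0.07, adjusted p = 0.0015). Nid2, which links laminin to type IV collagen, was -0.38 ± 0.10 (adjusted p = 0.0024). Lama3 was -0.25 ± 0.08 (adjusted p = 0.014) and did not pass without air_180 replicate 6 (0.062). The 6 type IV genes did not pass in edgeR's test, with 5 negative values and a median of -0.055 in set 180. A difference between these partners and the type IV genes was not tested.

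Genes of collagen breakdown had 3 of 15 higher and 1 lower in set 180, against 12.0% and 10.9% of all genes. Ctsk, cathepsin K, a collagen-cutting protease of macrophages and osteoclasts, rose from 17 ± 5.95 to 50.3 ± 5.88 CPM (1.56 ± 0.23, adjusted p = 1.2e-06). Timp1, an inhibitor of matrix metalloproteinases, rose from 35.7 ± 3.87 to 65.2 ± 9.23 CPM (0.86 ± 0.11, adjusted p = 5e-08). Mmp8, neutrophil collagenase, was 0.52 ± 0.17 (adjusted p = 0.021), and did not pass without air_180 replicate 6 (0.077) or MWCNT_180 replicate 5 (0.05). Mmp15 fell (-0.21 ± 0.06, adjusted p = 0.0036). Of 9 collagen receptors 1 rose and 1 fell, Ddr1 at 0.34 ± 0.09 (adjusted p = 0.0037) and Itga1, the integrin alpha1 chain, at -0.21 ± 0.07 (adjusted p = 0.02), the latter lost without air_180 replicate 5 or MWCNT_180 replicate 2.

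Among ligands, receptors and targets of transforming growth factor beta, 4 of 22 rose and 3 fell in set 180, against 12.0% and 10.9% of all genes. Thbs1, which can release latent growth factor, rose from 98 ± 11.9 to 200 ± 24.8 CPM (1.02 ± 0.17, adjusted p = 9.4e-06). Tgfbr1, a receptor, was 0.67 ± 0.11 (adjusted p = 2.9e-06), and Tgfbi 0.60 ± 0.07 (adjusted p = 1.1e-09). Tgfb1 itself was 0.15 ± 0.07 and did not pass (adjusted p = 0.13). Col1a1 and Col3a1, whose values are given above, did not pass in the same libraries. Whether the genes of this list act on collagen genes here was not tested.

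Cell type markers were counted in the same way in set 180, where 12.0% of all genes rose and 10.9% fell. Of 12 fibroblast markers 0 rose and 0 fell in set 180, 1 was lower at an unadjusted p under 0.05, and their summed level was 816 to 910 CPM in air and 739 to 875 CPM in exposed rats. Of 12 endothelial markers 9 fell, with 4920 to 5570 CPM in air and 4280 to 4730 in exposed rats, and 0 rose at an unadjusted p under 0.05. Of 12 alveolar type 1 markers 6 fell, with sums of 11000 to 11900 and 9480 to 9690 CPM. Of 12 smooth muscle and pericyte markers 0 rose and 3 fell, with sums of 1110 to 1280 and 1130 to 1300 CPM. Of 11 alveolar type 2 markers 5 rose and 0 fell, with sums of 23800 to 30500 and 31400 to 33300 CPM, and of 10 macrophage markers 6 rose and 1 fell, with macrophage sums of 512 to 796 and 748 to 793 CPM. Mesothelial markers gave 0 calls of 5, adipose 0 higher and 3 lower of 4, liver 1 higher of 15, and cardiac and skeletal muscle 2 higher of 10. The part of these shifts in the falls of Col13a1, Col27a1 and the type VI genes was not tested.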

How the data were processed

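RNA from a piece of lung of each of 60 rats was measured by stranded mRNA sequencing with 12 cycles of amplification, per the labels' protocols. The authors deposited 1 table of raw counts per gene. The submitters' processing notes name bcl2fastq 2.19, Trimmomatic 0.35, HISAT2 2.1.0, Cufflinks, SAMtools 1.8 and HTSeq 0.11.2; for genome build, annotation and counting strand the entry is: not given in the sources used here. Reads carry no molecular identifiers, so depth (8099154 to 16176867 counts) gives counting error only.

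Levels are CPM of the library total. The 7 libraries labelled as outliers were left out of the main results. Genes were kept with edgeR's filterByExpr (minimum count 10): 15995 stayed, with 99.932% of the counts, and 14050 were removed. The table holds 27 symbols turned into dates, which name no gene here. Counts were scaled by TMM and fitted with edgeR 4.0.16 (robust quasi-likelihood, 10 groups, 53 libraries; limma 3.58.1, R 4.3.3). Exposed rats were compared with their own air rats in each of the 5 sets. The effect was also tested along log2 dose, among sets and among air groups. P-values were Benjamini-Hochberg adjusted over all tested genes, with calls under 0.05. The standard error is the log2 fold change over the root of F. Correlations used log2 (CPM + 0.5) as deviations from group means and 100000 draws within groups (Python 3.11.15, numpy 2.4.6, scipy 1.17.1, matplotlib 3.10.9). Start windows are RefSeq's, on GRCr8.

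Genes were named with values if called in a set (up to 8 each way), if among the 5 smallest p for slope, sets or air groups, or if Col1a1, Col1a2, Col3a1, Col4a1 to Col4a4, Col15a1 or Col18a1; in partner lists up to 4 called genes with the largest change in set 180. The members and lists were chosen with earlier results of these data known. Alternatives were other libraries, scaling, filters, DESeq2 1.42.0, limma voom, other controls and dose scales, and leaving out each library. The edgeR code was tested on simulated data. Some genes that the naming rule takes are not reported here.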

Additional observations from a re-analysis of the deposited data

Results flagged for a closer look

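Within single groups of 4 to 6 rats, 18 of 171 gene-by-group sets held a rat far from the others, where chance gives about 1 in 20. The genes covary and share rats, so these sets are not independent, and an excess over chance was not tested. MWCNT_022 replicate 5 and MWCNT_045 replicate 6 gave 3 of the 18 each. Among type IV genes, Col4a1 was 1190 CPM in MWCNT_045 replicate 6 beside 1420 to 1480 in the rest of its group, and 1390 CPM in air_011 replicate 2 beside 1490 to 1540. Col4a2 was 755 CPM in MWCNT_045 replicate 6 beside 899 to 964. Col4a4 was 36.6 CPM in MWCNT_011 replicate 5 beside 24.6 to 26.7, and 33.0 CPM in MWCNT_180 replicate 6 beside 21.2 to 24.1. Col15a1 was 13 CPM in MWCNT_011 replicate 3 beside 0.0917 to 3.82.

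Col5a2 had a low rat in 6 groups. It was 287 CPM in MWCNT_022 replicate 5 beside 420 to 495, 399 in MWCNT_045 replicate 6 beside 474 to 499, and 439 in MWCNT_090 replicate 4 beside 482 to 486. It was also 400 CPM in MWCNT_180 replicate 4 beside 425 to 435, 452 in air_022 replicate 2 beside 501 to 520, and 471 in air_090 replicate 5 beside 501 to 515. MWCNT_022 replicate 5 was also low for Col27a1, at 8.52 CPM beside 18.9 to 22.8, and for Col8a2, at 8.16 beside 11.3 to 12.6. Col13a1 was 209 CPM in MWCNT_090 replicate 2 beside 235 to 236. Col6a4 was high in MWCNT_180 replicate 3, at 17.1 CPM beside 10.8 to 11.8, and in air_090 replicate 2, at 20 CPM beside 13.8 to 15.3. Col12a1 was 229 CPM in air_090 replicate 4 beside 214 to 219.

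The effect of exposure on Col13a1 differed among the 5 sets (edgeR, adjusted p = 5.7e-05), from 0.05 in set 011 to -0.52 in set 180. The row Col1a2-2, fitted with all other genes but with no test of it reported, reached 78.1 CPM in its highest library.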

How the results depend on the processing

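Of the 25 collagen calls (8 in set 180, 2 in 090, 3 in 045, 4 in 022, 0 in 011, 2 slopes, 1 difference among sets and 5 among air groups), 25 kept direction and threshold with DESeq2 size factors and with the stricter filter, 24 with limma voom and with 57 libraries, 22 with no filter, 19 of 19 in DESeq2, 17 of 17 with the air rats pooled across sets and 14 of 17 with each set alone. With all 60 libraries 2 did. Set 180 then gave 1 call, set 022 gave 0, slopes 0 and air groups 1, and Col13a1 in set 045 turned to 0.01 (adjusted p = 0.99). With 57 libraries, which leave out the 3 with over 1% liver markers, set 180 gave 11 and set 022 gave 4. Limma voom gave 13 in set 180, 7 in 090, 7 in 045, 6 slopes, 4 among sets and 9 among air groups. With each set alone they were 6 in 090, 5 in 045 and 1 in 022. With pooled air rats they were 15 in 180, 7 in 090, 8 in 045 and 10 in 022. No filter gave 2 among air groups, and 57 libraries gave 2 among sets. Slopes were 1 without set 180, 4 without 022 and 1 without 011. Air calls were 3 without air_090, 3 without air_022 and 0 without air_011. With the ribosomal protein share as a covariate, chosen after seeing the data, calls were 4 in 090, 7 in 045, 6 slopes, 5 among sets and 13 among air groups. Without MWCNT_022 replicate 5 and air_022 replicate 2, also chosen after seeing the data, there were 5 slopes and 4 among sets. Leaving out 1 library at a time gave 8 to 9 calls in set 180, 2 to 3 in 090, 1 to 4 in 045, 3 to 6 in 022, 0 to 0 in 011, 2 to 5 slopes, 1 to 3 among sets and 2 to 7 among air groups. The causes of these moves were not tested. No paired analysis was possible because the labels give exposed and air rats no shared litter, batch or animal. Depth limits the members of a few CPM, such as Col9a3 and Col23a1.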
